A study of Homo sapiens with 6 samples.

Results

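NRF2, the transcription factor encoded by NFE2L2, and 8 genes of its antioxidant programme were followed in RPMI 8226 cells, an established human multiple myeloma line derived from malignant plasma cells. The genes were chosen by symbol: NFE2L2, its inhibitor gene KEAP1, and the target genes NQO1, HMOX1, TXNRD1, SRXN1, TXN, PRDX1 and OSGIN1. All 9 were measured, each by 1 probe set that carries no other symbol, out of 18417 named genes. The cells had received 6 Gy of carbon ions (irradiated, 3 arrays) or 0 Gy (unirradiated, 3 arrays), with no other treatment named, and RNA was taken 1 day later in both groups. Carbon ions are particles that deposit energy densely along their track. The labels number the arrays of a dose 1 to 3 without saying that they come from separate cultures, so the p-values here reflect array-to-array spread that may be technical. The question is how the NRF2 genes of irradiated cells differ from those of unirradiated cells at that time.

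In unstressed cells KEAP1 holds NRF2 in the cytoplasm and presents it to a CUL3 ubiquitin ligase, so that the protein is quickly degraded. Oxidants and electrophiles modify cysteines of KEAP1, NRF2 then accumulates in the nucleus, pairs with a small MAF protein and binds antioxidant response elements near its target genes. Because this control acts mainly on the protein, the NFE2L2 transcript alone does not report NRF2 activity. Ionising radiation generates reactive oxygen species, and plasma cells also carry an oxidant load from the disulfide bonds they form in secreted antibody.

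The arrays were alike in scale. The deposited values were read as log2 intensities, with array medians between 5.66 and 5.72 for irradiated and between 5.64 and 5.67 for unirradiated cells. Of 8 plasma cell markers, 7 lay above the upper quartile of every array, while SLAMF7 was dim (5.05 to 5.26 in irradiated and 4.53 to 4.75 in unirradiated cells). Of these 8, SLAMF7 rose (0.55, limma adjusted p 0.00271), CD38 (-0.42, 0.0127) and XBP1 (-0.23, 0.0405) fell, and 5 did not pass. Of 11 measured markers of mature B, T and myeloid cells, 6 lay below the median of every array. The B cell marker MS4A1 was bright (9.05 to 9.19 in irradiated and 8.47 to 8.67 in unirradiated cells), above the upper quartile of every array. The myeloid marker ITGAM (7.26 to 7.42 and 6.63 to 7.01) and the T cell marker CD8A (6.05 to 6.17 and 6.01 to 6.10) lay above the median of every array. Of these 11, MS4A1 (0.54) and ITGAM (0.52) rose on the log2 scale and 0 fell. The mean log2 level of the 11 was 5.58 to 5.64 on the irradiated and 5.29 to 5.50 on the unirradiated arrays, and its part in the results was not tested. In such bulk RNA, fewer cells expressing a gene and less RNA per cell cannot be told apart.

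Upstream sequences are shown for NFE2L2, which fell, for NQO1, which rose, and for 2 further targets whose windows hold a match to the NRF2 element. They are the 250 bases before an annotated start in RefSeq (GRCh38.p14), which matched 7 of the 9 genes with 10 windows and not HMOX1 or PRDX1. The letters TGACNNNGC and TGAGNNNGC, the core of the antioxidant response element with either base at its variable position, were searched on both strands, and matches are in capitals. Either form overlaps the AP-1 site where its middle letters allow, as the second form does in OSGIN1. NFE2L2 is shown at its outermost start (chr2:177264728-177264977, minus strand), a window with 0 matches, NQO1 at chr16:69726561-69726810 (minus strand), TXNRD1 at its downstream start (chr12:104286782-104287031, plus strand) and OSGIN1 at chr16:83952990-83953239 (plus strand).
NFE2L2: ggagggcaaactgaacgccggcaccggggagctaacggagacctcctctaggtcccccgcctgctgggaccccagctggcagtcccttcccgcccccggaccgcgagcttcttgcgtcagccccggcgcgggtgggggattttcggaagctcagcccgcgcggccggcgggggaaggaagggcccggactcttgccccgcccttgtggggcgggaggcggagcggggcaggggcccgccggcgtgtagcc
NQO1: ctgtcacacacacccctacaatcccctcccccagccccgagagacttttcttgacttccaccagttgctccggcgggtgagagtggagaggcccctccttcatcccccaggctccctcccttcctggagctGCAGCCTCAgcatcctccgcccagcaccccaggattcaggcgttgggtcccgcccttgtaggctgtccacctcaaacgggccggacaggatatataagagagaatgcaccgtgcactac
TXNRD1: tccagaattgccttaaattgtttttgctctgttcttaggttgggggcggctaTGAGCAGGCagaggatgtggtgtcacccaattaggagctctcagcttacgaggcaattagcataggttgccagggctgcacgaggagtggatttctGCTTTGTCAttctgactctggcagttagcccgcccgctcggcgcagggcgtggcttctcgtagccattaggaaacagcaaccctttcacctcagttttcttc
OSGIN1: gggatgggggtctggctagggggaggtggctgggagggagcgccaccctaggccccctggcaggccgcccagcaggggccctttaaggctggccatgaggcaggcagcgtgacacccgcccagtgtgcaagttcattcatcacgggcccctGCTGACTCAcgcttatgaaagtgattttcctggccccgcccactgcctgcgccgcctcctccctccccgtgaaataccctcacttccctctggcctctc
At least 1 of the 2 forms stood in 6 of the 10 windows, which belong to 5 genes (NFE2L2, KEAP1, NQO1, TXNRD1 and OSGIN1), and in 23.9% of all 35116 windows. TGACNNNGC stood in 10.9% and TGAGNNNGC in 14.8% of all windows. Both NFE2L2 matches, TGAGCCCGC and TGAGCCGGC, lay in its other window, which is not shown. TXNRD1 held TGACAAAGC on the minus strand, 94 to 102 bases before the start, and OSGIN1 held TGAGTCAGC on the minus strand, 91 to 99 bases before the start. The NQO1 match, TGAGGCTGC, lay 111 to 119 bases before the start. A match is a run of letters only, and elements farther upstream lie outside these windows.

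Irradiated cells held less NFE2L2 transcript and more transcript of 2 NRF2 targets, HMOX1 and NQO1, while the other 6 genes did not pass the test. Of the 9 genes, 2 rose and 1 fell at a limma adjusted p under 0.05, set beside 14.5% of all genes called in either direction, 6.35% higher and 8.18% lower. These shares of all genes include dim genes and were not matched to the 9 in level. The values of the groups did not overlap for 5 of the 9 genes, against 34.7% of all genes. The median log2 difference of the 9 was 0.08 and that of all genes was 0.04. Among all 18417 genes HMOX1 had the 55th highest and NQO1 the 98th highest difference, and NFE2L2 the 274th lowest.

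**Figure D1:**
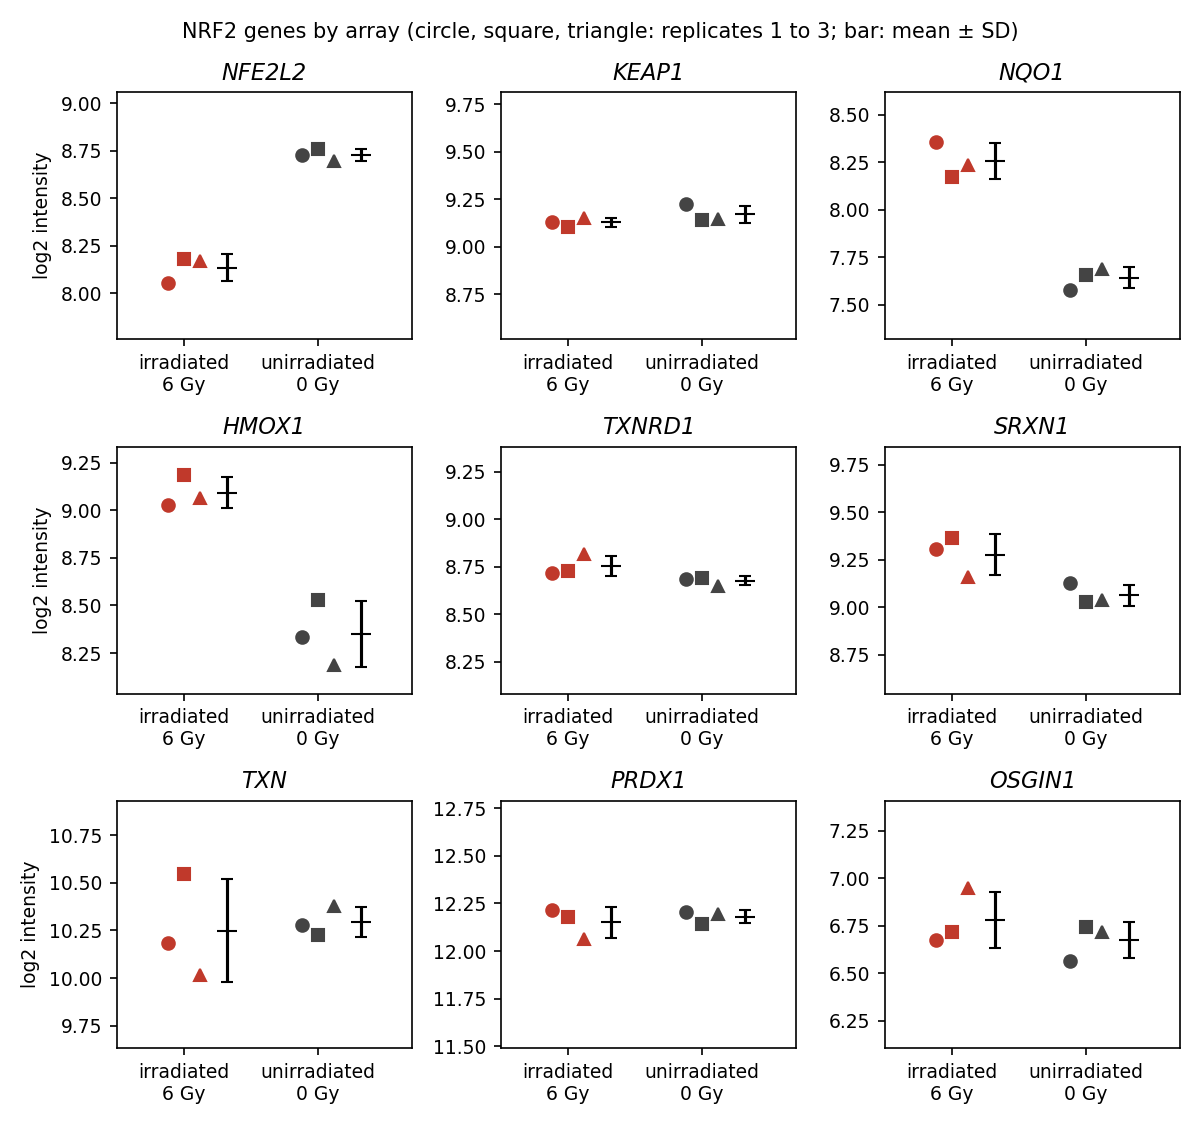
Log2 intensity (vertical axis, each panel spanning the same width of log2 units) of the 9 NRF2 genes on the 3 irradiated (6 Gy, red) and 3 unirradiated (0 Gy, dark) arrays, with mean and SD beside the points. All 3 irradiated arrays lie below the unirradiated ones for NFE2L2 and above them for NQO1 and HMOX1, and the points intermingle for KEAP1, TXN, PRDX1 and OSGIN1.

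NFE2L2 had log2 values of 8.06, 8.18 and 8.17 in irradiated cells and 8.73, 8.76 and 8.70 in unirradiated cells. The groups were well apart, with each irradiated array lower than every unirradiated one. The log2 difference was -0.59 ± 0.07 (SE), with a 95% interval from -0.74 to -0.44, so the transcript was 1.51-fold lower in irradiated cells (limma adjusted p 5.46e-04). KEAP1, whose product marks NRF2 for degradation, had 9.13, 9.11 and 9.15 in irradiated cells and 9.22, 9.14 and 9.15 in unirradiated cells. These values overlapped, and the difference of -0.04 had an interval from -0.19 to 0.10 (limma adjusted p 0.701); it was -0.02 without unirradiated replicate 1.

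HMOX1 encodes heme oxygenase 1, which breaks heme down to biliverdin, carbon monoxide and iron. Its log2 values were 9.03, 9.19 and 9.07 in irradiated cells and 8.33, 8.53 and 8.19 in unirradiated cells. All irradiated arrays were higher, although the unirradiated ones spread over 0.34 log2 units. The difference was 0.74 ± 0.09 (SE), with an interval from 0.53 to 0.95, or 1.67-fold (limma adjusted p 9.30e-04). NQO1 encodes a quinone reductase that transfers both electrons of NAD(P)H at a time and so avoids reactive semiquinones. It had 8.36, 8.17 and 8.23 in irradiated cells and 7.58, 7.66 and 7.69 in unirradiated cells. The gap between the groups was larger than the range of either. The difference was 0.61 ± 0.07 (SE), with an interval from 0.45 to 0.78, or 1.53-fold (limma adjusted p 7.35e-04).

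The thioredoxin system uses NADPH to keep protein thiols reduced, and of its 4 genes here 0 passed limma; 1 of them, SRXN1, had an unadjusted p under 0.05. SRXN1, encoding the sulfiredoxin that restores overoxidised peroxiredoxins, had 9.31, 9.36 and 9.16 in irradiated cells and 9.13, 9.03 and 9.04 in unirradiated cells. All irradiated values were higher, irradiated replicate 3 by the least. The difference of 0.21 ± 0.08 (SE) did not pass (limma p 0.0185, adjusted p 0.0909), and its interval ran from 0.04 to 0.38. Without irradiated replicate 3 it was 0.27 and was called (adjusted p 0.0451), and it was also called with an intensity trend and a robust prior (0.0426).

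TXNRD1, encoding the selenoenzyme that reduces thioredoxin, had 8.72, 8.73 and 8.82 in irradiated cells and 8.69, 8.69 and 8.65 in unirradiated cells. The groups did not overlap but were close, with a difference of 0.08 (95% interval -0.07 to 0.22; limma adjusted p 0.462). TXN, encoding thioredoxin itself, had 10.18, 10.54 and 10.02 in irradiated cells and 10.28, 10.22 and 10.38 in unirradiated cells. Irradiated replicate 2 held the highest value and irradiated replicate 3 the lowest of all 6 arrays. The difference was -0.05 (interval -0.31 to 0.22; adjusted p 0.831). PRDX1, encoding a peroxiredoxin that reduces hydrogen peroxide, had 12.22, 12.18 and 12.06 in irradiated cells and 12.20, 12.14 and 12.19 in unirradiated cells. These overlapped, with a difference of -0.03 (interval -0.18 to 0.13; adjusted p 0.822). OSGIN1, whose product restrains growth under oxidative stress, had 6.68, 6.72 and 6.95 in irradiated cells and 6.57, 6.74 and 6.72 in unirradiated cells. Its groups overlapped as well, with a difference of 0.11 (interval -0.09 to 0.30; adjusted p 0.461). Without irradiated replicate 3 the differences of TXN and PRDX1 turned positive (0.07 and 0.02, neither called), and those of TXNRD1 and OSGIN1 were 0.05 and 0.02. OSGIN1 was at 0.05 without unirradiated replicate 1, and TXNRD1 at 0.12 with quantile normalization. With each array left out in turn, TXN ran from -0.19 (without irradiated replicate 2) to 0.07 and PRDX1 from -0.06 (without irradiated replicate 1) to 0.02.

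**Figure D2:**
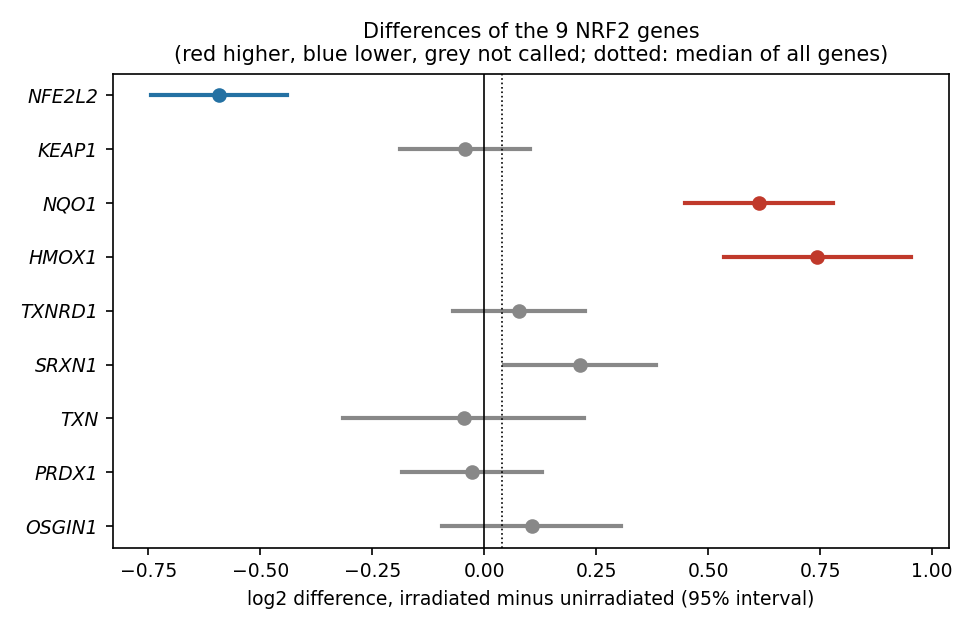
Log2 difference, irradiated minus unirradiated, of each NRF2 gene (point) with its 95% interval from limma (line). The intervals of NFE2L2 (-0.74 to -0.44), NQO1 (0.45 to 0.78) and HMOX1 (0.53 to 0.95) lie clear of 0 and of the median over all genes at 0.04 (dotted), and those of KEAP1, TXNRD1, TXN, PRDX1 and OSGIN1 include 0.

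Across the 6 arrays the pattern of each called gene was matched by many others. The closest above the median level was CTCF for NFE2L2 (Pearson r 0.999), PLA2G15 for NQO1 (0.999) and RPRML for HMOX1 (0.996), of 9199 genes searched. An r over 0.95 was reached by 631, 234 and 325 genes in that order, and all of these points share the same 6 arrays and the same step between doses.

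Both relatives of NRF2 in the list, its partner gene MAFG and the competitor gene BACH2 fell, while SQSTM1 and DPP3 rose. Of 15 measured genes for partners and regulators, 4 fell, 2 rose and 9 did not pass, with a median of -0.02 beside 0.04 for all genes and 14.5% of all genes called. The 14.5% was not matched to these 15 genes in level. NFE2L1, encoding the related factor NRF1 that drives proteasome genes, had 9.52, 9.53 and 9.60 in irradiated cells and 10.12, 10.17 and 10.10 in unirradiated cells. The groups were far apart, and the gene fell by 0.58 log2 units (adjusted p in limma 4.94e-04). NFE2L3, which encodes the other relative, NRF3, had 7.65, 8.01 and 7.79 in irradiated cells and 8.13, 8.23 and 8.07 in unirradiated cells. It fell by 0.33 (adjusted p 0.0471), close to the threshold. MAFG, encoding a small MAF protein that NRF2 needs to bind DNA, had 8.06, 8.19 and 8.27 in irradiated cells and 8.85, 8.92 and 8.71 in unirradiated cells. It fell by 0.65 (adjusted p 0.00102). The other measured small MAF gene, MAFF, differed by 0.15 (adjusted p 0.23), named after its value was seen. The 3 probe sets of MAFG disagreed, with differences of -0.65, -0.44 and -0.02 from the brightest to the dimmest, and their mean gave -0.37 (adjusted p 0.0121).

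BACH2, encoding a repressor that competes for the same DNA elements and acts in B cell differentiation, had 6.31, 6.49 and 6.42 in irradiated cells and 6.96, 7.15 and 6.84 in unirradiated cells. It fell by 0.58 (adjusted p 0.00292). BACH1, encoding the heme-sensitive repressor of HMOX1, had 8.50, 8.52 and 8.70 in irradiated cells and 8.53, 8.58 and 8.54 in unirradiated cells. These values overlapped, with a difference of 0.02 and an interval from -0.15 to 0.19 (adjusted p 0.884); the difference was -0.04 without irradiated replicate 3 and 0.06 without irradiated replicate 1. A pair of genes whose proteins bind KEAP1 and free NRF2 were higher. SQSTM1, the autophagy receptor p62, had 9.55, 9.51 and 9.58 in irradiated cells and 9.17, 9.06 and 9.24 in unirradiated cells. It rose by 0.39 (adjusted p 0.00655). DPP3, a peptidase, rose by 0.25 (adjusted p 0.03). With 1 array left out the call ended for DPP3 (each of the 6 arrays, adjusted p up to 0.102) and for NFE2L3 (each except irradiated replicate 2, up to 0.152), and for NFE2L3 also with quantile normalization (0.0685).

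**Figure D3:**
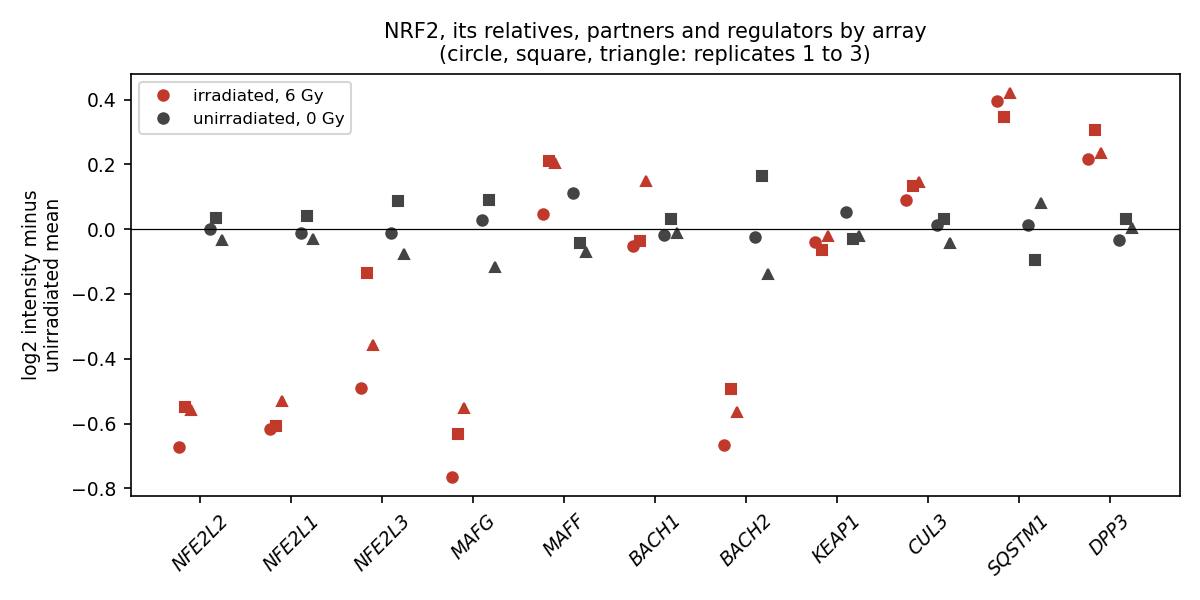
Log2 intensity minus the unirradiated mean of the gene (vertical axis) for NFE2L2, its relatives, DNA-binding partners, competitors and the genes of the KEAP1 system on the 3 irradiated (red) and 3 unirradiated (dark) arrays. NFE2L2, NFE2L1, MAFG and BACH2 lie between 0.49 and 0.77 log2 units below the unirradiated mean on the irradiated arrays, while BACH1 and KEAP1 overlap the unirradiated arrays and SQSTM1 and DPP3 lie above.

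Of 18 genes for glutathione synthesis and use, 4 fell, 1 rose and 13 did not pass, with a median of 0.01. Called were 27.8% of them, beside 14.5% of all genes, a share not matched in level. The 2 lowest differences were those of SLC7A11, the cystine importer, and CHAC1, an enzyme that degrades glutathione. SLC7A11 had 8.05, 8.27 and 7.99 in irradiated cells and 9.67, 9.96 and 9.85 in unirradiated cells, which is a difference of -1.72 (limma adjusted p 1.16e-05). CHAC1 differed by -3.05. SLC3A2, the partner chain of SLC7A11, fell by 0.35 (adjusted p 0.00811). GCLC, the catalytic subunit of the enzyme that commits cysteine to glutathione, had 8.01, 8.15 and 8.15 in irradiated cells and 8.47, 8.50 and 8.51 in unirradiated cells. It fell by 0.39 (adjusted p 0.00537), while its modifier subunit GCLM differed by 0.03 with an interval from -0.15 to 0.22 (adjusted p 0.825), or -0.03 without irradiated replicate 2 and -0.02 without unirradiated replicate 1. GLRX, a glutaredoxin that removes glutathione from proteins, rose by 0.26 (adjusted p 0.0415), a call that ended without any 1 array except irradiated replicate 2 (adjusted p up to 0.132).

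Of 13 further genes of the thioredoxin and peroxiredoxin system, 3 rose, 2 fell and 8 did not pass, with a median of 0.05. The share called was 38.5%, beside 14.5% of all genes, which were not matched in level. TXNIP, an inhibitor that binds reduced thioredoxin, had 10.97, 11.10 and 11.25 in irradiated cells and 11.55, 11.64 and 11.63 in unirradiated cells. It fell by 0.50 (limma adjusted p 0.00403). PRDX4, the peroxiredoxin of the endoplasmic reticulum, fell by 0.37 (adjusted p 0.0118). MSRB1, a selenoprotein that repairs oxidised methionine, had 8.50, 8.50 and 8.53 in irradiated cells and 8.04, 8.07 and 8.04 in unirradiated cells. It rose by 0.46 (adjusted p 0.00142), and neither group spread by more than 0.04. Nucleoredoxin (NXN) rose by 0.29 (adjusted p 0.0266) and TXNL1, a thioredoxin-like protein, by 0.22 (adjusted p 0.0453). Leaving out 1 array ended the calls of TXNL1 (each of the 6, adjusted p up to 0.131), NXN (each unirradiated array and irradiated replicate 2, up to 0.0895) and PRDX4 (unirradiated replicate 1, 0.0534).

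Of 12 genes for heme and iron handling, which meet the products of HMOX1, 3 rose, 1 fell and 8 did not pass, with a median of 0.01. Calls made up 33.3% of this list, beside 14.5% of all genes, which were not matched in level. SLC40A1, the iron exporter ferroportin, rose by 0.43 (limma adjusted p 0.0188). TFRC, the transferrin receptor that imports iron, had 11.13, 11.15 and 11.28 in irradiated cells and 10.92, 10.70 and 10.82 in unirradiated cells. It rose by 0.37 (adjusted p 0.0133). SLC48A1, a heme transporter, rose by 0.29 (adjusted p 0.0314), and FECH, the enzyme that inserts iron into heme, fell by 0.31 (adjusted p 0.0207). Leaving out 1 array ended the calls of SLC48A1 (each except irradiated replicate 3, adjusted p up to 0.107), SLC40A1 (unirradiated replicate 3 and irradiated replicates 1 and 2, up to 0.0649), FECH (irradiated replicate 3 and unirradiated replicates 2 and 3, up to 0.0708, and with quantile normalization 0.054) and TFRC (unirradiated replicate 2, 0.0574).

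Of 20 genes for detoxification and export, 4 rose, 0 fell and 16 did not pass, with a median of 0.06. With 20% called, the list lay near the 14.5% of all genes. AKR1C2, an aldo-keto reductase, had 6.06, 6.17 and 6.16 in irradiated cells and 5.60, 5.73 and 5.15 in unirradiated cells. It rose by 0.63 (limma adjusted p 0.0106), but AKR1C genes are close copies whose probe sets may share signal, and AKR1C1 (-0.04) and AKR1C3 (0.18) were not called. A dimmer second probe set of AKR1C1 differed by 0.12. UGDH, which makes the sugar donor for glucuronidation, had 8.85, 9.05 and 9.02 in irradiated cells and 8.50, 8.51 and 8.56 in unirradiated cells. It rose by 0.45 (adjusted p 0.00414). NQO2, the relative of NQO1, rose by 0.24 (adjusted p 0.0339), as did ABCC1, an exporter of glutathione conjugates (0.24, adjusted p 0.0362). The last pair of calls ended for NQO2 without any 1 of the 6 arrays (adjusted p up to 0.0977) and for ABCC1 without any 1 except irradiated replicate 2 (up to 0.108).

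Of 10 genes for NADPH supply, which feeds NQO1 and thioredoxin reductase, 1 fell, 0 rose and 9 did not pass, with a median of 0.00252. This is 10% called, near the 14.5% of all genes. RPIA, of the non-oxidative pentose phosphate branch, fell by 0.43 (limma adjusted p 0.00606). PGLS, a step of the oxidative branch, differed by 0.21 (adjusted p 0.0677) and the malic enzyme gene ME1 by 0.17 (adjusted p 0.149). PGLS was called without the dimmest genes and with quantile normalization. Of 7 genes for superoxide and peroxide enzymes, 0 passed limma at the adjusted threshold, beside 14.5% of all genes called. The 3 with the smallest p were SOD2, the mitochondrial superoxide dismutase (-0.20, unadjusted p 0.0258, adjusted p 0.111), GPX8 (0.10, adjusted p 0.385) and SOD1 (0.10, adjusted p 0.413), so 1 of the 7 had an unadjusted p under 0.05. GPX8 was dim, with log2 values of 2.85 to 3.11, below the lower quartile of every array, whereas SOD1 had 11.74 to 12.02. Without unirradiated replicate 3 the differences of GPX8 and SOD1 were 0.06 and 0.05, and SOD1 was at 0.16 without unirradiated replicate 1 and 0.06 without irradiated replicate 3.

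**Figure D4:**
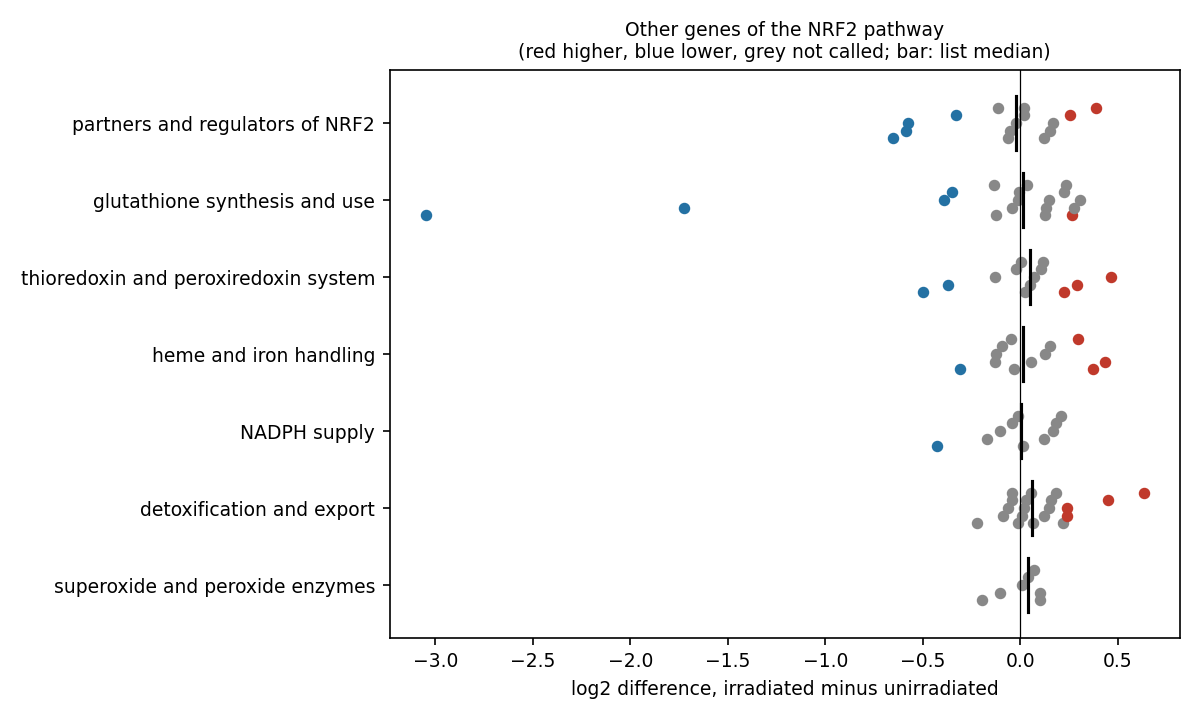
Log2 difference, irradiated minus unirradiated (horizontal axis), of the other genes of the NRF2 pathway by list, each point 1 gene, red higher, blue lower and grey not called, with the list median as a bar. The medians lie between -0.02 and 0.06, and the points farthest left are CHAC1 (-3.05) and SLC7A11 (-1.72).

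Over these 7 lists, 95 genes were measured, 13 rose, 12 fell and 70 did not pass. That is 26.3% called, beside 14.5% of all genes, and their median was 0.02. The 14.5% includes dim genes and was not matched to the lists in level. With the dimmest 33.3% of genes left out, fewer genes were tested and more were called. These were 1400 higher and 1778 lower, against 1169 and 1507 with all genes. The share called among the genes kept was therefore above 14.5%, so 14.5% is too low a yardstick for lists of mostly brighter genes. The lists were also chosen with earlier results of these data known. Whether the lists exceed genes of like level was not tested. Of the 25 list genes called, 13 kept the call with each array left out in turn. The number called higher fell to 6 without irradiated replicate 1, 7 without irradiated replicate 2, 6 without unirradiated replicate 1 and 5 each without unirradiated replicates 2 and 3.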

How the data were processed

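Total RNA was Trizol-extracted, biotin-labelled and hybridised to 1-colour arrays, per the labels' protocols. The authors deposited 33297 probe set values per array, read here as log2 intensities from their range (1.66 to 14.02); every fold rests on that reading. The sources used here do not name the background correction, normalization or software, and the table holds no detection calls. Of the probe sets, 19460 had 1 symbol in the platform annotation, 1754 had several and 12083 had none; 19429 of the first matched RefSeq by Entrez ID. The probe set with the highest mean over the 6 arrays stood for a gene, which left 18417 genes. With 3 arrays a group precision is limited: the median SE over genes was 0.08 log2 units.

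Irradiated and unirradiated arrays were compared with limma 3.58.1 (lmFit, eBayes; R 4.3.3), two-sided, with no covariate or filter, and Benjamini-Hochberg adjustment over all genes. "Rose" and "fell" mean an adjusted p under 0.05. Differences are irradiated minus unirradiated. Tested on simulated data for 18417 genes, this fit recovered 22% of changes of 0.25, 94% of 0.5 and 100% of 1 on the log2 scale, with 11 false calls. The simulation changed far fewer genes than the 2676 called in the data, which makes its adjustment stricter. Its recovery therefore does not give the sensitivity of the fit in these data. An exact permutation test of 3 arrays against 3 cannot go below a two-sided p of 0.1 and was not run.

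The members, lists and naming rule were chosen with earlier results of these data known. The rule names the 9 members, every called list gene, the 3 list genes with the smallest p, GCLC, GCLM, SLC7A11 and BACH1, and for each called member the gene with the highest Pearson r. It was extended, after values were seen, to SLAMF7, CD38, XBP1, MS4A1, ITGAM and CD8A among the markers and to AKR1C1, AKR1C3 and MAFF. Of 103 list genes, 95 were measured by a probe set with 1 symbol. The alternatives were the sample number as a block, each array left out, the dimmest 33.3% left out, quantile normalization, array medians subtracted, array weights, a robust prior with an intensity trend, and the mean of all probe sets. Tables and figures used matplotlib 3.10.9, numpy 2.4.6 and pandas 2.3.3 under Python 3.11.15.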

Additional observations from a re-analysis of the deposited data

How the results depend on the processing

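NFE2L2 stayed lower, and NQO1 and HMOX1 higher, with an adjusted p under 0.05 under all 13 alternatives run; their log2 differences with 1 array left out ran from -0.61 to -0.55, from 0.56 to 0.65 and from 0.66 to 0.83. KEAP1, TXNRD1, TXN, PRDX1 and OSGIN1 were called under none of them. SRXN1 ran from 0.17 to 0.27 with 1 array left out and was called without irradiated replicate 3, and with an intensity trend and a robust prior it was 0.21 with an adjusted p of 0.0426; the cause was not tested. TXN ran from -0.194 to 0.0700, PRDX1 from -0.0609 to 0.0174, BACH1 from -0.0441 to 0.0560 and GCLM from -0.0324 to 0.0768 with 1 array left out; BACH1 was -0.0036 with array weights, and none of these 4 was called. With 1 array left out the fits had fewer samples: all genes called higher ran from 619 to 887 (1169 with all arrays) and lower from 852 to 1324 (1507), in each case fewest without unirradiated replicate 2, and genes of the pathway lists called higher from 5 to 10 (13) and lower from 10 to 12 (12). A replicate block on the sample number left fewer residual degrees of freedom: 765 genes and 8 list genes were called higher, and 6 named calls ended (DPP3, GLRX, TXNL1, FECH, NQO2 and ABCC1); 0 calls of the 9 NRF2 genes changed. The labels do not say whether the numbers pair the arrays. Deviations of same-numbered arrays correlated at -0.04, 0.10 and -0.11, and those of differently numbered arrays between -0.11 and 0.15. So few weak correlations cannot decide whether the arrays are paired. The dimmest of the 9 genes, OSGIN1, had a mean level above that of the median gene, but without detection calls its height over background is unknown.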
